A study of Rattus norvegicus with 18 samples.

Results

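The 8 genes described here are Hmgcs1, Idi1, Fdft1, Sqle, Lss, Cyp51 and Dhcr7, which code for enzymes of cholesterol synthesis, and Insig1, which codes for the sterol-sensing brake on that pathway. They were chosen by name: every non-control probe whose gene name, or the rat symbol of its accession, was 1 of the 8 was taken. This gave 13 probes out of 41012 on the array, and 12 of them were tested among 28634 probes. All 8 genes were represented among the 12427 genes tested. No receptor for cholesterol uptake is among the 8, so uptake is described from a separate list.

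Cortical tissue came from male Crl:CD(SD)BR rats weighing 250 to 280 g, and its total RNA was labelled with Cy3 and hybridized to 1-colour oligonucleotide arrays. In the ischemia groups the middle cerebral artery had been occluded (MCAO), which cuts the blood supply of much of 1 hemisphere. These rats received erythropoietin (EPO), the hormone that drives red cell production and has been tried as a protectant of ischemic brain, or saline. The third condition was sham-operated rats, labelled as given no treatment. Each of the 3 conditions was sampled at 2 h and at 6 h, with 3 arrays in each of the 6 groups. The labels give neither the EPO dose and route, nor the age of the rats, nor which hemisphere was taken. They number 3 replicates per group without saying that each came from its own rat, so p-values measure the spread between these samples.

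Cholesterol does not cross the blood-brain barrier, so brain cells make their own, largely in glia. The pathway condenses acetyl-CoA to HMG-CoA (Hmgcs1), turns it into mevalonate, builds isoprene units (Mvd, Idi1), joins them to squalene (Fdft1), oxidizes and cyclizes squalene to lanosterol (Sqle, Lss), and trims lanosterol to cholesterol (Cyp51, Dhcr7). Its genes are targets of the transcription factor SREBP2, the product of Srebf2, which acts on promoters together with NF-Y and Sp1. When sterols are plentiful, Insig proteins hold the SREBP escort Scap in the endoplasmic reticulum, and when sterols fall SREBP2 is released by proteolysis. Insig1 is itself an SREBP target.

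The promoters of 4 members are shown because these genes differed in which comparisons passed the test. Idi1 passed against sham with both treatments at both times, and Insig1 with EPO at both times. Hmgcs1 passed at 6 h and not at 2 h, and Dhcr7 at neither time. Passing marks a threshold and not a difference between genes or treatments. Insig1 at 2 h differed from sham by 0.49 on the log2 scale with either treatment, on either side of the threshold. No member was called between EPO and saline, or in a test of unequal change at the 2 times. RefSeq windows of the GRCr8 build, from 250 bases before to 50 after a start of the gene, were found for 6 of the 8 genes. The start used lies at the outer end of the annotated gene for Idi1 and Dhcr7, but inside it for Hmgcs1 and Insig1. Capitals mark the NF-Y core CCAAT and the Sp1 core GGGCGG, searched on both strands, so that ATTGG and CCGCCC are their reverse-strand matches. The 2 GGGCGG matches of Dhcr7 overlap by 1 base.
Hmgcs1, chr2:53382054-53382353, plus strand: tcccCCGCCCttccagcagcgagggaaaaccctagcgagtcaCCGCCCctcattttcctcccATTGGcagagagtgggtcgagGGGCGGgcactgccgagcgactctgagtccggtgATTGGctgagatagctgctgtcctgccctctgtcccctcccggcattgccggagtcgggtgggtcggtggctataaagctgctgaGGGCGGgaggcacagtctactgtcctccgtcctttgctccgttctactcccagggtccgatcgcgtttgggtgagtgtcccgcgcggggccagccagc
Idi1, chr17:66547475-66547774, minus strand: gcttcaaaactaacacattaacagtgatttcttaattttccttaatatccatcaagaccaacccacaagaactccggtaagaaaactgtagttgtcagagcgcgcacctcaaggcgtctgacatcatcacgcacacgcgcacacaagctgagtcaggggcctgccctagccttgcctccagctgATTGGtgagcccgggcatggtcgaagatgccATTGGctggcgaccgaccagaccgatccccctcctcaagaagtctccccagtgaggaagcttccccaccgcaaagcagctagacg
Insig1, chr4:8057720-8058019, minus strand: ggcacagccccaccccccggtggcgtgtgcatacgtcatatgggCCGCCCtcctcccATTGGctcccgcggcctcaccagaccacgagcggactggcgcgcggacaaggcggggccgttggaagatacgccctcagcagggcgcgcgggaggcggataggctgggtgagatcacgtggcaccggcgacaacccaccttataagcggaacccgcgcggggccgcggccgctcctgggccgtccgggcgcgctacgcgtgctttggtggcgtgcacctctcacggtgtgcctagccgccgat
Dhcr7, chr1:208444184-208444483, plus strand: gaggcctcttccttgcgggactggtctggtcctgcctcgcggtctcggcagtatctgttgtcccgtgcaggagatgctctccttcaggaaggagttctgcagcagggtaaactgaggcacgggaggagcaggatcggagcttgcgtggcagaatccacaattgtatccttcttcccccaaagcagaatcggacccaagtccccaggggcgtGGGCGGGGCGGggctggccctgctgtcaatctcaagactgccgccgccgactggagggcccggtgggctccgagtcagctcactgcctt
Hmgcs1 had 2 NF-Y and 4 Sp1 matches, Idi1 had 2 NF-Y matches and no Sp1 match, Insig1 had 1 of each, and Dhcr7 had 2 Sp1 matches and no NF-Y match. Over the 6 windows, 4 held an NF-Y match (Hmgcs1, Insig1, Idi1 and Lss), against 37.5% of all 33469 windows. An Sp1 match was in 5 of the 6 (all but Idi1), against 33.1% of all windows. The sterol regulatory element was searched as TCACNCCAC on both strands and was found in 0 of the 6, against 1.12% of all windows. These are letter matches in short windows and were not tested as binding sites, nor against the pattern of calls.

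Between 61.5% and 80.6% of the probes on an array were well above background, and all 12 tested member probes were so on 18 of 18 arrays, with none saturated. The signal of the spiked-in control transcripts climbed more steeply on 6 arrays (slopes 0.914 to 0.941, against 0.788 to 0.866 on the others): EPO replicate 1 and saline replicate 1 at 2 h, and EPO replicate 3, saline replicates 1 and 3 and sham replicate 1 at 6 h. The arrays lay on 5 slides. The fifth slide, which held 4 of the steep arrays, was scanned on another day. Values below are log2 signals relative to the 75th percentile of each array. Tests are limma's moderated tests in 1 model over the 18 arrays, and a gene is called where its p, adjusted over all probes tested, is below 0.05. The median standard error of a comparison (saline against sham at 6 h) was 0.133, and 3 arrays per group limit the precision. In bulk cortex, fewer cells of a type and less RNA per cell cannot be told apart.

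Idi1, the isomerase that makes the reactive isoprene unit, was the member furthest above sham in both ischemia groups at both times, on the probe taken for each gene. At 2 h its log2 signal was 2.66, 2.61 and 2.56 with EPO and 2.80, 2.56 and 2.69 with saline, against 2.04, 1.83 and 1.89 in sham. Every ischemic array lay above every sham array. The rise over sham was 0.69 ± 0.08 with EPO (SE, 1.61-fold; adjusted p = 0.000324) and 0.76 ± 0.08 with saline (1.69-fold; adjusted p = 0.000141). At 6 h Idi1 stood at 2.22, 2.22 and 2.10 with EPO and 2.04, 2.20 and 2.24 with saline, against 1.76, 1.67 and 1.63 in sham. The groups were again separate, at a lower level in all 3 conditions. The rise was 0.49 ± 0.08 with EPO (1.41-fold; adjusted p = 0.000933) and 0.47 ± 0.08 with saline (1.39-fold; adjusted p = 0.00191). Both comparisons at a time use the same sham arrays and are not independent of each other.

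A second Idi1 probe gave the same calls, with 0.80 ± 0.13 (EPO) and 0.75 ± 0.13 (saline) at 2 h and 0.50 (EPO) and 0.52 (saline) at 6 h, adjusted p between 0.00468 and 0.0182. Pairs of arrays on 1 slide also gave positive differences. They were 0.67 for EPO (1 slide) and 0.76, 0.73 and 0.79 for saline (3 slides) at 2 h, and 0.56 and 0.34 for EPO and 0.53 and 0.48 for saline (2 slides each) at 6 h. Without the 6 steep arrays the rise at 2 h was 0.66 with EPO (adjusted p = 0.0387) and 0.70 with saline (adjusted p = 0.0289). The change at 6 h was then 0.57 with EPO (adjusted p = 0.0185). With saline it was 0.55 and the call was lost, in a fit that kept only 1 saline array at 6 h.

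**Figure D1:**
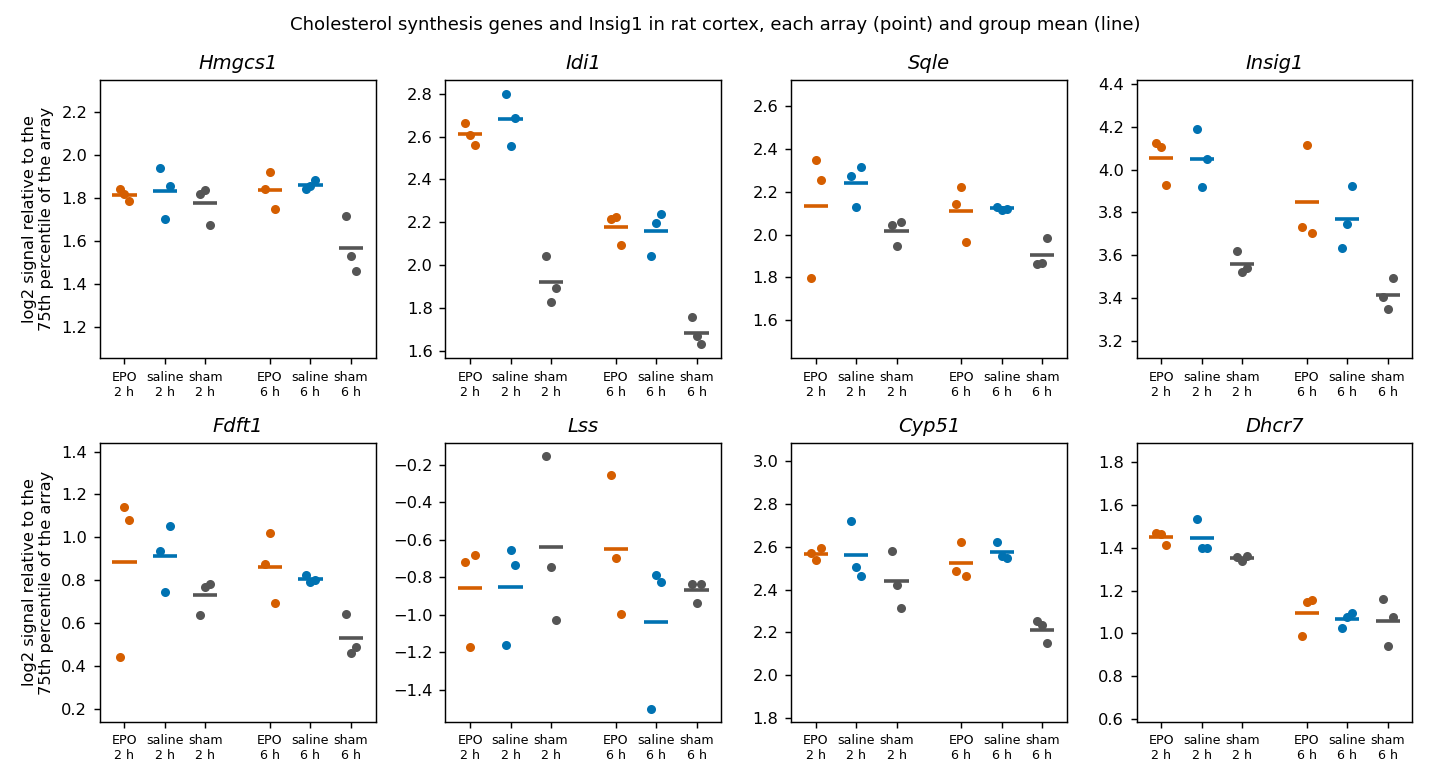
Log2 signal relative to the array's 75th percentile (vertical axis) for each of the 8 genes, by group (EPO, saline and sham at 2 h, then at 6 h), with 1 point per array and a line at the group mean. All panels span the same log2 range except that of Lss, which spans a wider one. Idi1 and Insig1 stand above sham at both times, Hmgcs1 and Cyp51 do so at 6 h, where sham is lowest, and Dhcr7 is lower at 6 h than at 2 h in every condition.

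Insig1, the endoplasmic reticulum protein that retains Scap when sterols are plentiful, came after Idi1 in 3 of the 4 comparisons with sham. With saline at 6 h Cyp51 lay above it. At 2 h it stood at 4.13, 4.11 and 3.93 with EPO and 4.19, 3.92 and 4.05 with saline, against 3.62, 3.52 and 3.54 in sham. No ischemic array overlapped sham. The rise with EPO was 0.49 ± 0.11 (1.41-fold; adjusted p = 0.0499), at the edge of the threshold. The difference with saline was of the same size, 0.49 ± 0.11, and missed it (adjusted p = 0.0536).

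At 6 h Insig1 stood at 3.73, 4.11 and 3.70 with EPO and 3.63, 3.75 and 3.92 with saline, against 3.40, 3.35 and 3.50 in sham. The groups did not overlap, but 1 EPO array, replicate 2, lay well above the other two. The rise with EPO was 0.43 ± 0.11 (1.35-fold; adjusted p = 0.0179), and without that array the difference was 0.30 (adjusted p = 0.0757). It also missed the threshold without sham replicate 1 (0.43; adjusted p = 0.0562) or sham replicate 2 (0.40; adjusted p = 0.0649). With saline the difference was 0.35 ± 0.11 (adjusted p = 0.062). Pairs on 1 slide differed by 0.39 with EPO and 0.57, 0.40 and 0.51 with saline at 2 h, and by 0.77 and 0.30 with EPO and 0.40 and 0.52 with saline at 6 h. Without the 6 steep arrays neither EPO call held (0.46 at 2 h, adjusted p = 0.368, and 0.50 at 6 h, adjusted p = 0.0864).

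Insig1 has 4 probes, and at 6 h all 4 were called with EPO, at 0.43 to 0.59. Only 1 of the 4 was called with saline at 6 h, a probe other than the brightest (0.44; adjusted p = 0.037). At 2 h the brightest probe alone was called with EPO and none with saline, at changes of 0.48 to 0.59 with EPO and 0.44 to 0.53 with saline. The mean of every probe was above sham in all 4 comparisons.

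**Figure D2:**
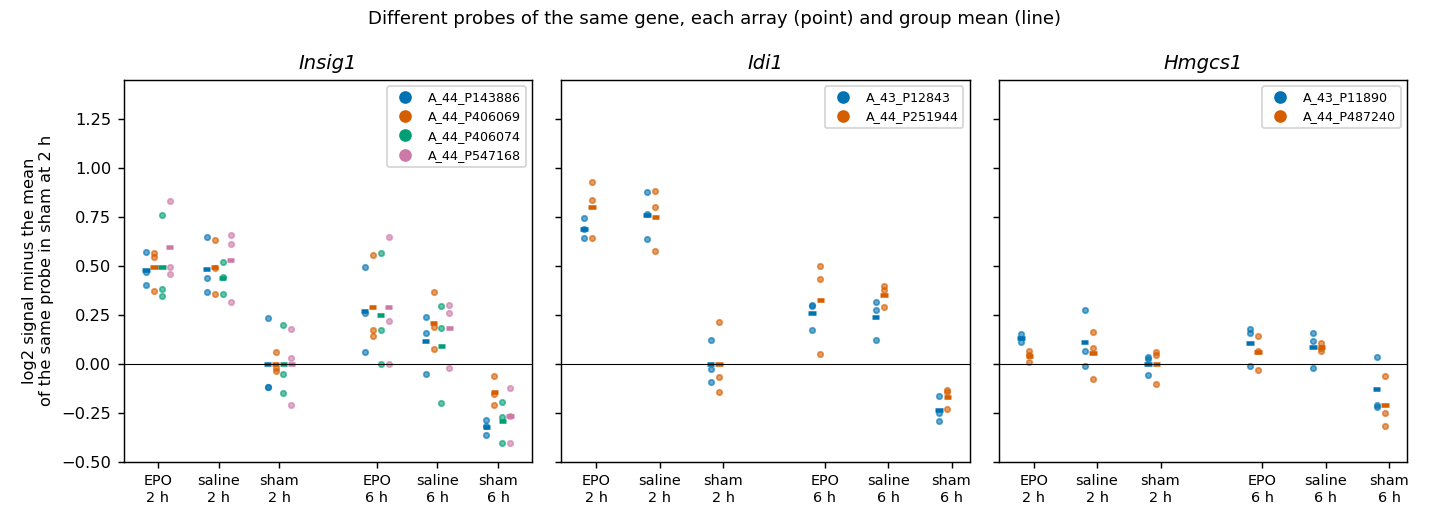
Log2 signal of each probe of Insig1 (4 probes), Idi1 (2) and Hmgcs1 (2) minus the same probe's mean in sham at 2 h (vertical axis), by group, with 1 point per array, a line at the group mean and a colour per probe. For each of the 8 probes the ischemic group means lie above the sham mean at 6 h.

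Hmgcs1, the synthase at the entry of the mevalonate pathway, and Cyp51, the demethylase that starts the trimming of lanosterol, differed from sham at 6 h. At 6 h Hmgcs1 stood at 1.84, 1.92 and 1.75 with EPO and 1.84, 1.86 and 1.89 with saline, against 1.72, 1.53 and 1.46 in sham. The ischemic arrays were close together, and the lowest of them was just above the highest sham array. Hmgcs1 rose by 0.27 ± 0.08 with EPO (1.20-fold; adjusted p = 0.0341) and by 0.29 ± 0.08 with saline (adjusted p = 0.0301). At 2 h its difference was 0.04 ± 0.08 with EPO and 0.06 ± 0.08 with saline, with overlapping groups.

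The call of Hmgcs1 rested on few arrays. With EPO it was lost without EPO replicate 1 (adjusted p = 0.0857) or 2 (0.134) or sham replicate 2 (0.106) or 3 (0.14). With saline it was lost without any 1 of the 3 saline arrays (adjusted p = 0.0675 to 0.0987) or without sham replicate 2 (0.0984) or 3 (0.123). With slide as a block the change was 0.25 with EPO (adjusted p = 0.0768) and 0.28 with saline (adjusted p = 0.0654). Pairs on 1 slide differed by 0.39 and 0.03 with EPO and by 0.33 and 0.17 with saline. Without the 6 steep arrays the difference was 0.39 with EPO (adjusted p = 0.0596). With saline it was then 0.36, on only 1 saline array. The other, brighter probe of Hmgcs1 lost its spot on 1 EPO array at 2 h and was not tested, and at 6 h averaged 5.34 with EPO and 5.31 with saline, against 5.10 in sham. On this probe the 6 h groups overlapped, with sham replicate 1 (5.26) above EPO replicate 1 (5.21) and saline replicate 2 (5.20). At 2 h it averaged 5.36 with EPO and 5.34 with saline, against 5.23 in sham.

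Cyp51 stood at 2.49, 2.62 and 2.46 with EPO at 6 h and 2.62, 2.56 and 2.55 with saline, against 2.25, 2.24 and 2.15 in sham. The 3 sham arrays were lower than every other array at that time by a clear margin. The gene rose by 0.31 ± 0.08 with EPO (1.24-fold; adjusted p = 0.0162) and by 0.36 ± 0.08 with saline (1.29-fold; adjusted p = 0.0101). At 2 h the differences were 0.13 ± 0.08 with EPO and 0.12 ± 0.08 with saline, and 1 sham array reached the ischemic range. The 6 h call with EPO was lost without EPO replicate 2 (0.26; adjusted p = 0.0753) or sham replicate 3 (0.28; adjusted p = 0.0666). Pairs on 1 slide differed by 0.39 and 0.21 with EPO and by 0.32 and 0.30 with saline. Neither call held without the fifth slide (0.36 with EPO, adjusted p = 0.0826, and 0.40 with saline, adjusted p = 0.102). Neither held without the 6 steep arrays, at 0.36 with EPO (adjusted p = 0.1) and 0.37 with saline, the latter on only 1 saline array.

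Of the squalene steps, none was called. Sqle, the epoxidase that catalyses a slow step of the pathway, ranged from 1.80 to 2.35 with EPO and from 2.13 to 2.32 with saline, against 1.94 to 2.06 in sham at 2 h. Its differences from sham were 0.12 ± 0.12 (EPO) and 0.23 ± 0.12 (saline) at 2 h, and 0.21 ± 0.12 (EPO) and 0.22 ± 0.12 (saline) at 6 h. The lowest EPO value was that of replicate 1 at 2 h, a steep array. Saline replicate 1 at 2 h, also steep, stood at 2.27.

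Fdft1, squalene synthase, showed the same low array, with 0.44, 1.14 and 1.08 in EPO at 2 h. The saline arrays then held 0.93, 0.75 and 1.05, against 0.64, 0.77 and 0.78 in sham. At 6 h the difference was 0.33 ± 0.15 with EPO (adjusted p = 0.173) and 0.28 ± 0.15 with saline (adjusted p = 0.301), and neither group overlapped sham.

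Lss, the cyclase that closes the sterol ring, was the most variable member. At 6 h its signal was -0.25, -0.70 and -0.998 with EPO and -1.502, -0.79 and -0.82 with saline, against -0.84, -0.93 and -0.84 in sham. A range that wide left a standard error of 0.26, against 0.12 for Sqle, and no difference of Lss could be shown at this precision.

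Dhcr7, the reductase of the last step, was called between the times and not against sham. At 2 h it stood at 1.47, 1.46 and 1.41 with EPO and 1.54, 1.40 and 1.40 with saline, against 1.36, 1.34 and 1.36 in sham. At 6 h the values were 0.99, 1.15 and 1.16 with EPO and 1.03, 1.08 and 1.096 with saline, against 1.16, 0.94 and 1.08 in sham. The 2 h groups did not overlap sham, but by a narrow margin (0.10 ± 0.07 with EPO and 0.09 ± 0.07 with saline). At 6 h the difference was 0.04 ± 0.07 with EPO (adjusted p = 0.852) and 0.01 ± 0.07 with saline (adjusted p = 0.95).

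Counted over the 8 genes, at 2 h 2 rose with EPO (Idi1 and Insig1), where 1.44% of all genes tested were called higher, and 1 rose with saline (Idi1), where 1.28% were. At 6 h 4 rose with EPO (Idi1, Insig1, Cyp51 and Hmgcs1), beside 8.22% of all genes, and 3 rose with saline (Idi1, Cyp51 and Hmgcs1), beside 6.16%. No member was called lower than sham, whereas of all genes 0.362% (EPO) and 0.346% (saline) were at 2 h and 10.8% (EPO) and 6.8% (saline) at 6 h. Groups that did not overlap, with ischemia higher, were found for 3 members with EPO and 4 with saline at 2 h, against 9.67% (EPO) and 8.45% (saline) of all genes, and for 5 with EPO and 6 with saline at 6 h, against 13.7% (EPO) and 13.1% (saline).

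The median difference from sham over the 8 genes was 0.12 (EPO) and 0.15 (saline) at 2 h, against -0.04 (EPO) and -0.05 (saline) over all genes tested. Its values at 6 h were 0.29 (EPO) and 0.28 (saline), against -0.01 (EPO) and -0.09 (saline) over all genes. The members were chosen with earlier results of these data known, so these medians describe them and are no test. The comparisons with EPO and with saline share their sham arrays.

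**Figure D3:**
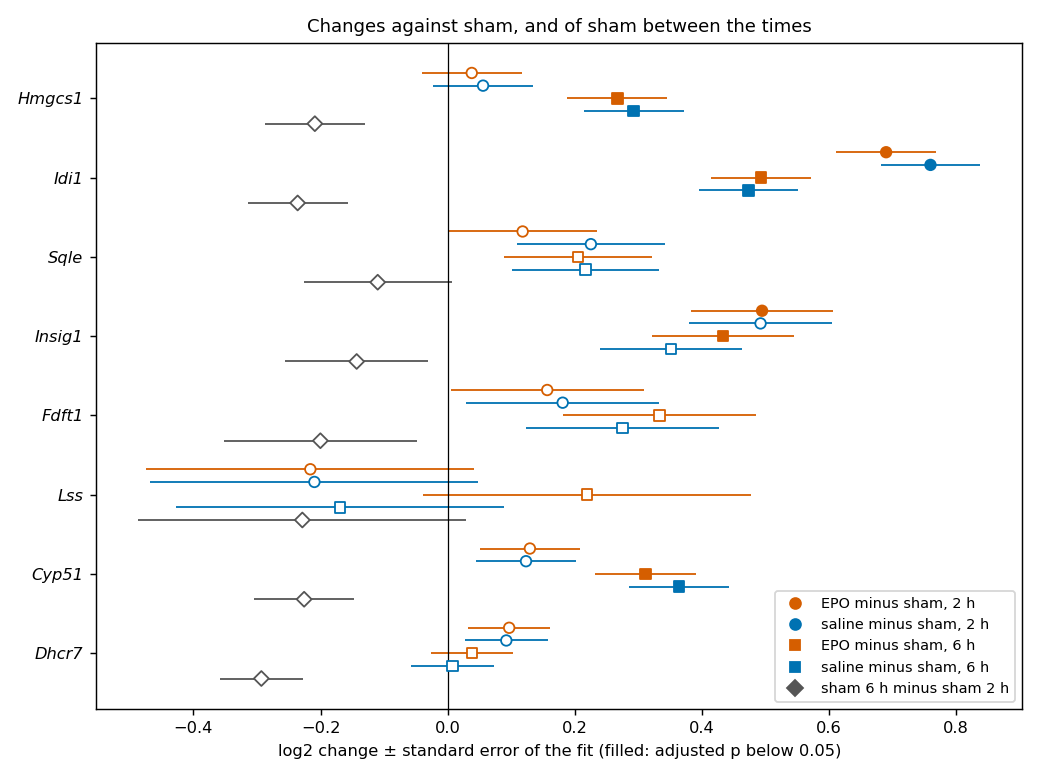
Log2 change with its standard error (horizontal axis) of each gene for EPO minus sham and saline minus sham at 2 h (circles) and 6 h (squares) and for sham at 6 h minus sham at 2 h (diamonds); filled symbols have an adjusted p below 0.05. The sham diamonds lie below 0 for all 8 genes, with none filled.

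EPO was set against saline to ask whether the treatment altered the response to ischemia. No member was called at 2 h or at 6 h, where 0 of the 12427 genes (0%) were called in limma. At an unadjusted p below 0.05 there were 381 probes at 2 h and 1184 at 6 h, and no member gene was among them. The median difference over the 8 was -0.01 at 2 h and 0.03 at 6 h.

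The intervals show how large an effect of EPO could have been missed. For Idi1 the difference was -0.07 at 2 h (95% interval -0.24 to 0.10) and 0.02 at 6 h (-0.15 to 0.19). For Insig1 it was 0.00 at 2 h (-0.24 to 0.24) and 0.08 at 6 h (-0.16 to 0.32). Lss gave the largest value of the 8, 0.39 ± 0.26 at 6 h (-0.17 to 0.95; adjusted p = 0.778), with an interval that holds 0. Insig1 was called against sham with EPO and not with saline, but its difference between the treatments was not called.

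Time was followed in each condition. In sham cortex all 8 genes were lower at 6 h than at 2 h, by 0.11 to 0.29, but none was called, where 0.209% of all genes were called lower. Dhcr7 came closest (-0.29 ± 0.07; adjusted p = 0.072), followed by Idi1 (-0.24 ± 0.08; adjusted p = 0.301), Cyp51 (-0.23 ± 0.08; adjusted p = 0.34) and Hmgcs1 (-0.21 ± 0.08; adjusted p = 0.396). Of the 8, 4 had groups that did not overlap (Idi1, Insig1, Cyp51 and Dhcr7), as had 11.6% of all genes in that direction. On the second Idi1 probe the groups overlapped. The median over the 8 was -0.22, against -0.04 over all genes. Dhcr7 passed the threshold in 4 of 37 other ways of processing the data.

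In the ischemic cortex, 2 members fell between the times in both treatments, on the probe taken for each gene. Idi1 was lower at 6 h than at 2 h by 0.43 ± 0.08 with EPO (adjusted p = 0.00359) and by 0.52 ± 0.08 with saline (adjusted p = 0.00144). Dhcr7 fell by 0.35 ± 0.07 with EPO (adjusted p = 0.00399) and by 0.38 ± 0.07 with saline (adjusted p = 0.00342). Over all genes, 8.47% fell with EPO and 4.46% with saline. All 4 of these calls were lost without the 6 steep arrays, at falls of 0.37 (EPO) and 0.42 (saline) for Idi1 and of 0.37 (EPO) and 0.32 (saline) for Dhcr7. For saline that fit kept only replicate 2 at 6 h.

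Hmgcs1 and Cyp51 stood at nearly the same level at both times in ischemia with saline. Their differences between 6 h and 2 h were 0.03 (95% interval -0.14 to 0.20) for Hmgcs1 and 0.01 (-0.16 to 0.19) for Cyp51. Sham was lower at 6 h than at 2 h for both, by amounts that were not called. A test of whether the change against sham was unequal at the 2 times (an interaction term) passed for none of the 8. It was 0.23 with EPO (adjusted p = 0.323) and 0.24 ± 0.11 with saline (adjusted p = 0.421) for Hmgcs1, 0.18 with EPO (adjusted p = 0.447) and 0.24 ± 0.11 with saline (adjusted p = 0.413) for Cyp51, and -0.20 with EPO (adjusted p = 0.404) and -0.29 ± 0.11 with saline (adjusted p = 0.287) for Idi1. Among all genes 1.86% (EPO) and 1.17% (saline) had a positive interaction, and 1.58% (EPO) and 0.764% (saline) a negative one.

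The members did not share 1 order of levels, read here on the probe taken for each gene. Idi1 ran from ischemia at 2 h (EPO and saline overlapping), through ischemia at 6 h (again overlapping), to sham at 2 h and then sham at 6 h, with no overlap between these 4 steps. On the second Idi1 probe EPO replicate 3 at 6 h (0.18) lay below sham replicate 1 at 2 h (0.35). The 2 sham groups also overlapped on that probe. Insig1 had all 4 ischemic groups overlapping in sequence, above sham at 2 h and then sham at 6 h. On each of the other Insig1 probes saline replicate 1 at 6 h lay below sham replicate 1 at 2 h. Dhcr7 had ischemia at 2 h above sham at 2 h, and all 3 groups at 6 h below and overlapping. In Cyp51 sham at 6 h stood alone at the bottom and in Hmgcs1 it was lowest but touched sham at 2 h. Across the 6 group means, pairs of members correlated between -0.17 and 0.98, with a median of 0.72, as a description of points that share the same arrays.

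The genes whose 6 group means were most like the mean profile of the 8 members, among 3908 genes with enough spread between groups (an SD of at least 0.2), were Errfi1 (r = 0.9994), Tiparp (0.988), Klf4 (0.985), Dusp1 (0.977), Fabp7 (0.976), Ccl5 (0.971), Pim3 (0.971) and C11h21orf91 (0.970). That profile, with each member centred on its own mean, stood at 0.14 with EPO and 0.17 with saline against -0.05 in sham at 2 h, and at 0.03 with EPO and -0.03 with saline against -0.26 in sham at 6 h. Likeness over 6 points does not separate these genes from others of similar order. Genes of the pathway and marker lists used here, Mvd and Stard4 among them, were left out of the 3908, as were genes with provisional symbols. These genes were therefore not compared with the profile.

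The rest of the synthesis pathway, 13 further enzymes all tested, rose in a minority of its members. At 2 h 0 of 13 were called in limma with EPO or saline (2 with EPO and 3 with saline at an unadjusted p below 0.05), and at 6 h 4 rose with EPO and 3 with saline, with none called lower. Over all genes, 8.22% (EPO) and 6.16% (saline) were called higher at 6 h. The change against sham differed between the times for 0 of the 13 with EPO (1 at an unadjusted p below 0.05) and for 1, Mvd, with saline in limma. The median difference from sham was 0.11 (EPO) and 0.05 (saline) at 2 h, and 0.17 (EPO) and 0.19 (saline) at 6 h. The list was chosen with earlier results known.

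Mvd, the decarboxylase that acts just before Idi1, was the furthest above sham of these at 6 h. At that time it stood at 2.68, 2.97 and 2.80 with EPO and 2.74, 2.81 and 2.96 with saline, against 2.28, 2.10 and 1.97 in sham. The ischemic and sham arrays were far apart. Mvd rose by 0.70 ± 0.10 with EPO (1.63-fold; adjusted p = 0.000554) and by 0.72 ± 0.10 with saline (1.65-fold; adjusted p = 0.000715). At 2 h its difference from sham was 0.19 ± 0.10 with EPO (adjusted p = 0.506) and 0.05 ± 0.10 with saline (adjusted p = 0.835). For Mvd the change against sham differed between the times with saline (interaction 0.67 ± 0.15; adjusted p = 0.0411), a call lost in 20 of 37 other ways of processing. With EPO the interaction was 0.51 ± 0.15 and was not called (adjusted p = 0.0818).

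At 6 h the other risers of the list acted late in the pathway or at its start. Msmo1, the sterol methyl oxidase that follows Cyp51, rose by 0.42 ± 0.08 with EPO (adjusted p = 0.00259) and by 0.29 with saline (adjusted p = 0.0311). Hsd17b7, a ketosteroid reductase of the same demethylation, rose by 0.38 ± 0.09 with EPO (adjusted p = 0.0148) and by 0.47 with saline (adjusted p = 0.0069). Acat2, which makes acetoacetyl-CoA, rose by 0.30 ± 0.09 with EPO (adjusted p = 0.0399) and differed by 0.29 with saline (adjusted p = 0.0567).

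**Figure D4:**
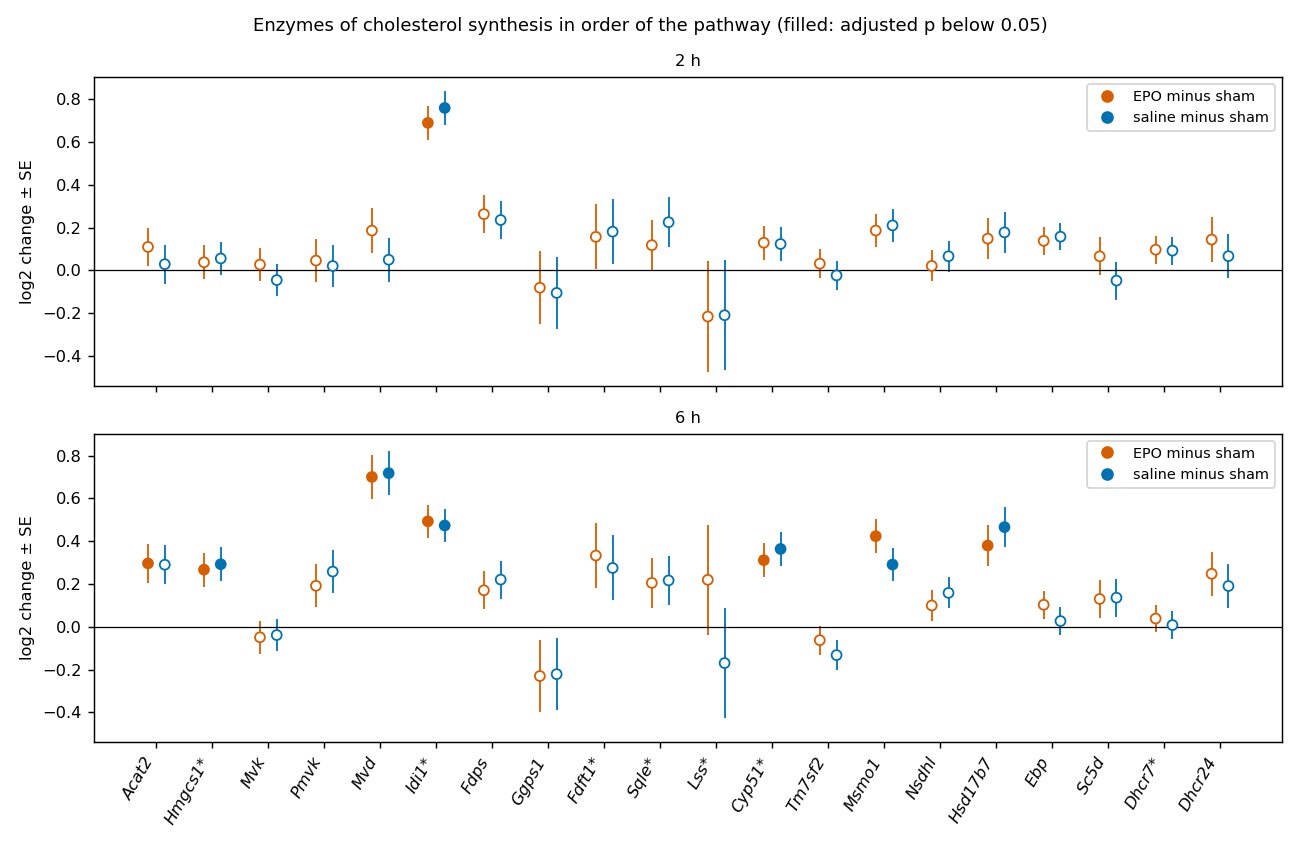
Log2 change against sham with its standard error (vertical axis) for 20 enzymes of cholesterol synthesis in pathway order, with EPO and saline at 2 h (upper panel) and at 6 h (lower panel); asterisks mark the 7 enzymes among the 8 genes and filled circles an adjusted p below 0.05. At 2 h Idi1 stands out, and at 6 h Mvd and Idi1.

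Uptake and transport of cholesterol were represented by 10 tested genes of a list of 11. Stard4, a sterol carrier of the cytosol, rose in all 4 comparisons with sham and was the only one of the list called higher in any of them. At 2 h it stood at -0.16, -0.20 and -0.24 with EPO and -0.26, -0.36 and -0.17 with saline, against -0.81, -0.82 and -0.87 in sham. The sham arrays were tightly grouped and far below. The rise at 2 h was 0.63 ± 0.09 with EPO (adjusted p = 0.00297) and 0.57 ± 0.09 with saline (adjusted p = 0.00563). The 6 h rise was 0.47 ± 0.09 with EPO (adjusted p = 0.00385) and 0.44 ± 0.09 with saline (adjusted p = 0.0087).

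The median difference of the list from sham was -0.05 (EPO) and -0.01 (saline) at 2 h, and 0.03 (EPO) and -0.02 (saline) at 6 h. Over all genes, 1.44% (EPO) and 1.28% (saline) were called higher at 2 h, and 8.22% (EPO) and 6.16% (saline) at 6 h.

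Of the 10 genes of the SREBP control machinery, none was called at 2 h in limma (1 with EPO and 1 with saline at an unadjusted p below 0.05), and at 6 h 1 was called, downward. This was Mbtps1, the first protease that releases SREBP, which fell by 0.29 ± 0.07 with EPO (adjusted p = 0.011) and by 0.29 ± 0.07 with saline (adjusted p = 0.017). Over all genes, 10.8% (EPO) and 6.8% (saline) were called lower at 6 h, so 1 of 10 is near that share. The difference of Srebf2 from sham was -0.11 (EPO) and -0.07 (saline) at 2 h, and 0.24 ± 0.24 (EPO, adjusted p = 0.64) and -0.40 ± 0.24 (saline, adjusted p = 0.338) at 6 h. For Srebf1, whose main product drives fatty acid genes, it was -0.05 (EPO) and 0.13 (saline, adjusted p = 0.606) at 2 h, and -0.06 (EPO) and 0.03 (saline) at 6 h. Transcript levels do not measure the release of SREBP by proteolysis.

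Markers of cell types were read beside the members. Over all genes, 8.22% (EPO) and 6.16% (saline) were called higher at 6 h, and 10.8% (EPO) and 6.8% (saline) lower. Of 9 markers of striatal neurons, a region under the cortex, all 9 were above background on every array, though the tissue was labelled cortex. Their summed signal, in multiples of the array's 75th percentile, was 30.3 to 34.2 with EPO and 25.7 to 35.5 with saline, against 16.5 to 27.9 in sham at 2 h. At 6 h it was 34.3 to 43.7 with EPO and 31.3 to 37.5 with saline, against 20.4 to 26.9 in sham. At 6 h 7 of the 9 were called higher with EPO and 2 with saline, and at 2 h 0 with either. Their median difference from sham at 6 h was 0.70 (EPO) and 0.62 (saline). Between EPO and saline 0 of the 9 were called at 6 h.

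The sum over 11 oligodendrocyte markers, the cells that build myelin from cholesterol, was 282 to 313 with EPO and 297 to 308 with saline, against 272 to 277 in sham at 2 h, and 289 to 304 with EPO and 276 to 303 with saline, against 254 to 282 in sham at 6 h. Of these 11, 2 were called higher with EPO at 6 h and 0 in the other comparisons with sham. Their median difference at 6 h was 0.22 (EPO) and 0.21 (saline), and 0 were called between EPO and saline. Of 9 astrocyte markers, 1 was called higher with EPO and 1 with saline at 2 h, and 1 with EPO and 0 with saline at 6 h. Of 10 neuron markers, 3 were called lower with EPO and 2 with saline at 6 h, where their sum was 168 to 184 with EPO and 177 to 181 with saline, against 192 to 206 in sham. The part of these differences in the values of the cholesterol genes was not tested.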

How the data were processed

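RNA of 18 cortex samples was measured on 1-colour arrays. Agilent Feature Extraction 9.1.1.1 is named in the submitters' processing notes, and the deposited scanner files give each spot a background-subtracted intensity, per the file headers on a linear scale. The authors' deposited value table holds log2 intensity per probe and matched the unscaled processed signals of the scanner files.

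Spots marked as outliers were left out, spots of a probe were averaged on the log2 scale, and the array's 75th percentile was taken off. A probe was tested if some group had it well above background on all 3 arrays (28634 probes), and 325 with no usable spot on an array were dropped. Names came by accession (10735), symbol (5571) or synonym (3729) from RefSeq's rat genes, and the tested probe of highest mean signal stood for a gene.

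Groups were taken from the labels. In R 4.3.3, limma 3.58.1 (with statmod 1.5.0; files read with data.table, version 1.17.8) fitted 1 model of 6 group means (12 residual degrees of freedom), with Benjamini-Hochberg adjustment over all probes tested and a threshold of 0.05. The procedure was tested on simulated data. All 8 members and every probe of theirs are named. From each pathway list the text names the genes called against sham, up to 6 per comparison, and, called or not, Srebf1, Srebf2 and Abca1. Some genes of these lists are not reported here, and the lists' counts and medians leave them out. The members and lists were chosen with earlier results of these data known.

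Same-number arrays deviated together between EPO and saline at 2 h, where the correlations of their deviations across probes were 0.887, 0.654 and 0.635. The labels do not say what the numbers share, and replicate 1 was a steep array in both groups. Blocking on the replicate number gave 0 called members there too. The 37 other ways of processing varied the following: background correction, scaling, filter, variance model, threshold, choice of probe, blocks for slide and spike-in slope, the arrays in the fit, and each array left out in turn.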

Additional observations from a re-analysis of the deposited data

Results flagged for a closer look

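Mvd, which codes for the decarboxylase before Idi1 in the pathway, is given here because its change against sham with saline differed between the times in a test of the difference itself. The interaction was 0.67 ± 0.15 on the log2 scale (adjusted p = 0.0411 in limma). With EPO it was 0.51 ± 0.15 and was not called (adjusted p = 0.0818). Mvd was above sham at 6 h by 0.72 ± 0.10 with saline and differed by 0.05 ± 0.10 at 2 h. In sham it was lower at 6 h than at 2 h by 0.45 ± 0.10, which was not called (adjusted p = 0.0868). The interaction passed the threshold in 17 of 37 other ways of processing, at values of 0.60 to 0.79. None of the 8 members had such an interaction.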

How the results depend on the processing

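Over 37 other ways of processing, no called change of a member turned its direction. Idi1 was called in 36 (EPO) and 36 (saline) of them at 2 h, and in 37 (EPO) and 36 (saline) at 6 h. Insig1 at 2 h with EPO was called in 7 of 37, and at 6 h with EPO in 28. Cyp51 at 6 h was called in 30 (EPO) and 34 (saline), and Hmgcs1 in 26 (EPO) and 24 (saline). EPO against saline and the interactions gave 0 members in all 37.

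Counts of members called moved as follows. With EPO at 2 h the count was 2 as reported and 1 under normexp background correction, quantile normalization, deposited values without scaling between arrays, no filter on dim probes, slide or the spike-in slope class as a block, slope as a covariate, the mean of a gene's probes, a threshold of 0.01, and without the steep arrays, the arrays of title numbers set apart or the fifth slide. With each array left out it was 1 to 2, and 2 only without EPO 6 h replicate 2 or saline 6 h replicate 3. The replicate block also gave 1 (Insig1 at adjusted p = 0.099) and changed no other call of a member. With saline at 2 h the count was 1, but 2 where probes had to be above background on all 18 arrays, with slide as a random block, with a trended robust variance or with the percentile over probes, and 1 to 2 with an array left out (2 without EPO 6 h replicate 2). With EPO at 6 h it was 4, and 1 to 4 over the settings other than leaving out each array in turn. It was 1 on unscaled values, without the steep arrays or at 0.01. Hmgcs1 was lost with slide as a block, and Cyp51 without the fifth slide. With an array left out the count was 1 to 5 (1 without EPO replicate 2, 2 without sham replicate 2 or 3). Without the steep arrays, which left 1 saline array at 6 h, no call with saline held at that time. With saline at 6 h the count was 3, but 1 at 0.01 or without the fifth slide, 2 on unscaled values, and 2 to 4 under the remaining settings, an array left out included. With only the arrays of a comparison in the fit it was 0 at 2 h with either treatment and 1 at 6 h with EPO.

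In sham between the times the count was 0, but 1 (Dhcr7) under quantile normalization, slide as a random block, the trended robust variance or the slope class. Between the times with EPO it was 2, but 0 on unscaled values, without the steep arrays or with only those arrays, and 1 without the fifth slide. With saline it was 2, but 1 on unscaled values and 0 with only those arrays. No call with saline held without the steep arrays, where 1 saline array was left at 6 h. The median of all probes against sham at 2 h was -0.07 as reported, 0.01 after quantile normalization and -0.18 on unscaled values with EPO, and -0.07, 0.00 and -0.14 with saline. At 6 h it was 0.00, -0.03 and 0.00 with EPO, and -0.13, -0.03 and -0.08 with saline. Leaving out the fifth slide and taking the percentile over probes were chosen after seeing the data. The cause of these moves was not tested, beyond fewer arrays in the fits that leave arrays out.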

Other observations

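Genes of cholesterol efflux, storage and oxysterols were read from a list of 12, all tested. Ch25h, which makes the oxysterol 25-hydroxycholesterol, rose by 1.27 ± 0.21 with EPO (adjusted p = 0.00596) and by 1.42 ± 0.21 with saline (adjusted p = 0.00266) at 2 h. At 6 h it stood at 1.57, 1.90 and 1.68 with EPO and 1.86, 1.83 and 1.89 with saline, against -0.14, 0.47 and -0.55 in sham. No ischemic array came near a sham array. It was the gene of the list furthest above sham in all 4 comparisons.

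Of the other 11 genes of that list, 4 were called with EPO and 2 with saline at 6 h, and 7 with neither. Over all genes, 8.22% (EPO) and 6.16% (saline) were called higher at 6 h, and 10.8% (EPO) and 6.8% (saline) lower. Abca1, the exporter of cholesterol to apolipoproteins, rose by 0.70 ± 0.17 with EPO (adjusted p = 0.0128) and differed by 0.35 with saline (adjusted p = 0.23). Nceh1, a hydrolase of cholesterol esters, fell by 0.55 with EPO (adjusted p = 0.0023) and by 0.47 with saline (adjusted p = 0.00983). Cyp27a1, the sterol hydroxylase of mitochondria, fell by 0.45 with EPO (adjusted p = 0.0213) and by 0.44 with saline (adjusted p = 0.0324). Abcg1, an exporter to lipoprotein particles, fell by 0.44 with EPO (adjusted p = 0.00356). With saline it was not called, at 3.34, 3.16 and 3.24 against 3.39, 3.48 and 3.66 in sham. Between EPO and saline at 6 h 0 genes of the list were called. The list's median difference at 6 h was -0.01 with EPO and -0.07 with saline.

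Of 10 tested genes of a list of 11 for fatty acid synthesis, which SREBP1 drives, 0 were called against sham in limma. At an unadjusted p below 0.05 there were 1 with EPO and 4 with saline at 2 h, and 2 with EPO and 2 with saline at 6 h. The list's median difference from sham was -0.04 (EPO) and -0.13 (saline) at 2 h, and 0.00 (EPO) and 0.01 (saline) at 6 h.

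Markers of other cells were also called at 6 h, when 8.22% (EPO) and 6.16% (saline) of all genes were called higher and 10.8% (EPO) and 6.8% (saline) lower. Of 10 microglia and macrophage markers, 3 were called higher and 2 lower with EPO, and 2 higher and 2 lower with saline. Of 10 endothelial markers, 2 were called higher and 4 lower with EPO, and 0 higher and 4 lower with saline. Of 6 neutrophil markers 3 were tested, and 2 of these rose with each treatment. Only 1 of the 3 was above background on every array. A probe was tested if some group had it well above background, so the sizes of these rises may rest on dim values. The summed signal of these 3 was 0.579 to 1.46 with EPO and 0.889 to 0.994 with saline, in multiples of the array's 75th percentile, against 0.206 to 0.398 in sham.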
